A study of Mus musculus with 8 samples.

Results

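The histone genes described here are those of the replication-dependent clusters, which lie on mouse chromosomes 13 (Hist1), 3 (Hist2), 11 (Hist3) and 6 (Hist4). Members were the probe sets, groups of short probes against a transcript, that the array's gene annotation assigns to a gene whose older symbol starts with Hist1h, Hist2h, Hist3h or Hist4h. They numbered 35 of the 45037 probe sets tested. The annotation writes these genes with their newer symbols, such as H2ac, H2bc, H3c, H4c and H1f, and the older symbols were found through Entrez identifiers among RefSeq synonyms. In all, 56 of the 70 RefSeq genes with such a symbol were named by a member, 44 of 56 in Hist1, 8 of 10 in Hist2, 3 of 3 in Hist3 and 1 of 1 in Hist4.

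Affymetrix arrays measured RNA from the mouse embryonic stem cell (ESC) line R1/E at 48 h of RNAi. The cells were transfected with esiRNA, which is a mixture of short interfering RNAs cut by an enzyme from a long one. In 4 samples the esiRNA was directed against Rad21, a subunit of the cohesin ring, and in 4 control samples against luciferase (Luc), which the cells do not contain. Each well held 80000 cells and 800 ng esiRNA, and the labels call the 4 arrays of each group biological replicates, without saying whether they came from separate cultures or days. The knock-down left part of the transcript, only this R1/E line was used, and the labels do not say whether the arrays share an esiRNA preparation. Values are the deposited GCRMA values on the log2 scale, so that a difference of 1 is a doubling.

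Replication-dependent histone genes supply the linker histone H1 and the core histones H2A, H2B, H3 and H4 while DNA is being copied. Many near-identical genes encode the same protein, and their transcripts mostly end in a stem-loop in place of a poly(A) tail. Stem-loop binding protein, U7 snRNP and the endonuclease Cpsf3 form that end, and Npat and Hinfp act at histone promoters at the start of S phase. Array labelling that starts from oligo(dT), as in the kit named in the study's methods, copies poly(A) RNA, so the share of histone mRNA that reaches the array is not known. Probe sets that read several gene copies cannot say which copy was measured. Of the 35 members, 16 carried 1 symbol and 19 carried several, and 9 carried symbols of more than 1 cluster.

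To show how the regulatory DNA of these genes is built, the 250 bases before the RefSeq start site are given for H2aw and H2bu2 of the Hist3 cluster, whose probe sets above the low plateau had differences of opposite sign, for a gene named by all H3 probe sets that fell, and for a gene named by the H2B probe set that rose. All are from GRCm38.p6, written 5′ to 3′ along the gene's strand. H3c14 (older symbol Hist2h3c1) is at chr3:96246435-96246684 on the + strand, H2aw (Hist3h2a) at chr11:58954435-58954684 on the + strand, H2bu2 (Hist3h2ba) at chr11:58948661-58948910 on the + strand and H2bc8 (Hist1h2bg) at chr13:23571150-23571399 on the + strand. Capitals mark matches, on either strand, to the TATA box letters TATAAA, the CCAAT box letters CCAAT and the octamer letters ATTTGCAT.
H3c14: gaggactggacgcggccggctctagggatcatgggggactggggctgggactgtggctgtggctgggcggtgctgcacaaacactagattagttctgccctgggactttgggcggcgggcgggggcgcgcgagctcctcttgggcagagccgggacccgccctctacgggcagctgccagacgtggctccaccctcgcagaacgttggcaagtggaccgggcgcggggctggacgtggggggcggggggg
H2aw: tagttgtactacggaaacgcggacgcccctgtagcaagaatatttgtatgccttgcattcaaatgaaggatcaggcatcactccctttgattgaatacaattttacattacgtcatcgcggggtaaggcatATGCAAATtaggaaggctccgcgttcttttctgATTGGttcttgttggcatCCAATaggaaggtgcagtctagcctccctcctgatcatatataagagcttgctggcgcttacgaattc
H2bu2: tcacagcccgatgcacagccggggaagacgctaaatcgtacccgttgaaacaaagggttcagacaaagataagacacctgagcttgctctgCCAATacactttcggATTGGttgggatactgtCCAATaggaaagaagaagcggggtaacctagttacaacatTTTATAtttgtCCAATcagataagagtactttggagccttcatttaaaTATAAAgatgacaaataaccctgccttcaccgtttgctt
H2bc8: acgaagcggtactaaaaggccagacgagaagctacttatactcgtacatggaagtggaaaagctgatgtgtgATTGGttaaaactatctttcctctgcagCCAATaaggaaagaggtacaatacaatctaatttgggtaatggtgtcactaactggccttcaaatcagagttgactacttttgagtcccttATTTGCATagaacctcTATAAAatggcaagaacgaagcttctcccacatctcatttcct

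The H2bc8 stretch held 1 TATA box, 2 CCAAT boxes and 1 octamer. The same probe set also names H2bc6 and H2bc4, the gene it was designed from, which are not printed. Both stretches found for H2bc6 held 3 CCAAT boxes and no TATAAA, with an octamer in only 1 of them. The H2bu2 stretch held 2 TATA matches and 4 CCAAT boxes, and that of H2aw held 2 CCAAT boxes, 1 octamer and no TATAAA. No match fell in the printed stretch of H3c14, whose CCAAT box lay past the annotated start site. H3c15 of the same cluster shared an unbroken run of 231 bases with it, and H2ac18 and H2ac19 shared 169 bases, whereas the longest run shared by H2aw and H2bu2 was 11 bases. Promoter windows of 300 bases, from 250 before to 50 after the start, were found for 50 of the 56 member genes, in 51 windows. CCAAT was present in 82.4% of these and in 37.4% of all 32851 promoter windows, TATAAA in 49% and 13.6%, and the octamer in 17.6% and 1.74%. By histone type, CCAAT was found in every H1, H2A, H2B and H3 window and in 3 of 12 H4 windows, and the octamer in 5 of 13 H2A and 4 of 13 H2B windows and in no H1, H3 or H4 window. These matches describe the letters in the windows and were not related to the expression values by a test.

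Rad21 was lower on every knock-down array by each of its 3 probe sets. Probe set 1416161_at read 13.62, 13.42, 13.83 and 13.79 in Luc replicates 1 to 4 and 11.69, 11.75, 12.37 and 12.52 in the knock-down. Probe set 1416162_at read 8.87, 8.86, 8.83 and 8.73 against 5.67, 6.17, 6.56 and 6.53, and 1455938_x_at read 12.15, 11.80, 12.33 and 12.25 against 10.93, 10.83, 11.23 and 11.60. The groups did not overlap in any of them, and the differences were -1.58 ± 0.21 (SE, n = 4 per group; limma adjusted p = 0.00222), -2.59 ± 0.19 (limma adjusted p = 1.64e-04) and -0.98 ± 0.19 (limma adjusted p = 0.0114). Within replicates 3 and 4 alone the last of these did not pass (limma adjusted p = 0.0659). Replicates 1 and 2 and replicates 3 and 4 are called the replicate sets below. The labels do not give this split, which was taken from earlier results of these same data. Array medians ran from 3.08 to 3.16, and Pearson r over all probe sets was 0.998 to 0.999 within a group and 0.993 to 0.995 between groups. All 10 ESC markers were well expressed, with array values from 9.67 to 15.98, and 7 of them fell. The study's methods describe the cells as grown without feeder cells. Of 10 fibroblast markers, which would mark feeder cells, 8 had a mean under 4 in both groups, including Col1a1 and Col1a2. Thy1 fell (-0.56; limma adjusted p = 0.0248) and the other 9 did not pass, of which Col3a1 differed by 0.80 (limma adjusted p = 0.189) and by 1.35 within replicates 1 and 2 (limma adjusted p = 0.0127). The part that any cells with these markers have in the histone values was not tested. The log2 values of the 10 fibroblast markers, most of them dim, summed to 31.6 to 32.9 on Luc arrays and 32.2 to 33.4 on knock-down arrays. In whole-culture RNA, fewer cells of a type and less RNA per cell cannot be told apart.

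Histone members moved in both directions. In the main fit, with all arrays and no block, the share called was close to that of all probe sets. An adjusted p under 0.05 was reached by 5 of 35 members, or 14.3%, against 14.9% of all probe sets. Of these 2 rose, where 6.47% of all probe sets did so, and 3 fell, where 8.4% of all did so. The groups did not overlap in 9 members, 3 higher and 6 lower in the knock-down, which is 25.7% of members against 19.4% of all probe sets. The median difference over the 35 members was -0.05, against 0.003 over all probe sets, with 14 members above 0 and 21 below. Since that share is near the background, the count is not a result about histone genes as a class, and what follows concerns single probe sets. Members with a mean under 4 in both groups numbered 16, with array values from 1.51 to 3.77, and none of them was called. Values this low sit on the plateau to which the deposited normalization pulls dim probe sets, and they give little information on the gene.

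Histone H3, which carries much of the modification code of chromatin, had the member with the largest difference. Probe set 1422155_at is annotated to 8 H3 genes, H3c2, H3c3, H3c4, H3c6 and H3c7 of Hist1 and H3c13, H3c14 and H3c15 of Hist2. It read 6.4, 6.66, 7.83 and 7.67 in Luc replicates 1 to 4 and 4.71, 5.48, 5.10 and 5.62 in the knock-down. All knock-down arrays lay below all control arrays, and the control arrays of replicates 3 and 4 were the highest. The difference was -1.92 ± 0.37 (SE, n = 4 per group; limma adjusted p = 0.0121), which is 3.77-fold lower. It was -1.44 within replicates 1 and 2 and -2.39 within replicates 3 and 4, and the sets were not shown to differ (limma interaction adjusted p = 0.465).

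The brightest H3 probe set, 1460314_s_at, is annotated to 12 H3 genes, and the sequence it was designed from belongs to H3c14. It read 9.65, 9.83, 9.64 and 9.66 on Luc arrays and 9.20, 9.19, 9.25 and 9.25 on knock-down arrays. Replicates lay close together in both groups, with a gap between the groups that was wider than the range within either. The difference was -0.47 ± 0.05 (SE, n = 4 per group; limma adjusted p = 5.30e-04), or 1.39-fold lower, with -0.54 and -0.40 in the 2 replicate sets.

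Probe set 1442051_at shares the 8-gene list of 1422155_at and was designed from a sequence of H3c14. It and the Hist2 probe sets 1418366_at, 1418367_x_at and 1447854_s_at, the 4 members below -0.3 that were not called, were chosen for description after their values had been seen. It read 5.97, 5.53, 6.73 and 6.69 in Luc and 5.30, 5.27, 5.52 and 5.56 in the knock-down. The groups overlapped slightly, since knock-down replicate 4 was above Luc replicate 2. The difference was -0.82 ± 0.27 (SE, n = 4 per group) and did not pass (limma adjusted p = 0.10). It passed within replicates 3 and 4 alone, at -1.17 (limma adjusted p = 0.00581), with the replicate sets as a block (0.0156) and without Luc replicate 2 (0.0188). It also passed with array weights (limma adjusted p = 0.0139) and with a minimum mean of 4 (0.0327), and 14 alternative fits did not call it.

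H3 probe sets with the same gene list did not give the same difference. For the 12-gene list, 1427864_at differed by 0.06 ± 0.16 (SE, n = 4 per group), against -0.47 for 1460314_s_at. The other H3 members were 1431231_at (H3c7) at -0.15 and 1453573_at (H3c4), 1427863_at (H3c2 and H3c10) and 1443475_at (H3c11), which were dim and lay from -0.01 to 0.40. The highest, 1453573_at, differed by 0.40 ± 0.15 (SE, n = 4 per group) and did not pass (limma adjusted p = 0.132). It passed within replicates 1 and 2, at 0.58 (limma adjusted p = 0.0167), and with the replicate sets as a block. Within replicates 3 and 4 it was 0.23 (limma adjusted p = 0.111). These values too were chosen after they had been seen. In the main fit 2 of the 8 H3 members fell and none rose.

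Histone H4, the partner of H3 in the nucleosome core, contributed the member that rose most. All 5 H4 probe sets are annotated to the same 13 genes, 11 of Hist1, H4c14 of Hist2 and H4f16 (Hist4h4), so no level can be given for Hist4 alone. Probe set 1424854_at read 7.66, 7.94, 7.41 and 7.67 in Luc replicates 1 to 4 and 8.65, 8.49, 8.55 and 8.65 in the knock-down. Every knock-down array was above every control array, and the knock-down arrays were the closer together. The difference was 0.91 ± 0.11 (SE, n = 4 per group; limma adjusted p = 0.00121), or 1.88-fold higher, with 0.76 and 1.06 in the replicate sets.

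The brightest H4 probe set, 1422948_s_at, read 9.34, 9.60, 9.26 and 9.41 in Luc and 9.67, 9.65, 9.65 and 9.57 in the knock-down. Luc replicate 2 reached the knock-down range. The difference of 0.23 ± 0.07 (SE, n = 4 per group) did not pass (limma adjusted p = 0.0717), but did without Luc replicate 2 (0.00641). With all arrays it passed with array weights (limma adjusted p = 0.0161) and when centred on bright probe sets (0.0296). It also did after quantile normalization (limma adjusted p = 0.0397) and with a minimum mean of 4 (0.0411). The other 13 alternative fits did not call it. For this probe set and for 1422947_at the design sequence belongs in RefSeq to H3c1, so their place among H4 rests on the annotation's symbols alone.

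The other H4 members gave differences close to 0. Probe set 1428014_at read 4.56, 4.22, 4.51 and 4.27 in Luc and 4.10, 4.02, 4.42 and 4.26 in the knock-down, a difference of -0.19 (limma adjusted p = 0.397). The dim 1422947_at read 3.12, 3.05, 3.07 and 3.26 against 3.06, 3.06, 3.06 and 3.09, and 1431658_at read 2.36, 2.49, 2.45 and 3.11 against 2.70, 2.42, 2.38 and 2.43. In all 3 the groups overlapped, and the last 2 differed by -0.06 and -0.12. Probe sets with an identical list of H4 genes thus spanned -0.19 to 0.91.

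Among the H2A members, which encode the histone that pairs with H2B, all 7 differences were below 0 and 1 passed the test. Of the 7, 3 were dim in both groups and give little information, among them 1438815_at (H2ac18 and H2ac19) at -0.13. The member that passed reads the Hist3 gene H2aw. Probe set 1435866_s_at, which names H2aw alone, read 7.95, 8.08, 8.20 and 8.36 in Luc replicates 1 to 4 and 7.42, 7.51, 7.58 and 7.54 in the knock-down. The groups were well apart and the knock-down arrays were the closer together. The difference was -0.64 ± 0.09 (SE, n = 4 per group; limma adjusted p = 0.00238), or 1.55-fold lower, with -0.55 and -0.72 in the replicate sets.

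The other H2aw probe sets were dim and did not show it. Probe set 1455712_at read 3.63, 3.75, 3.61 and 3.65 in Luc and 3.48, 3.68, 3.75 and 3.66 in the knock-down, a difference of -0.02. Probe set 1435865_at, also annotated to the adjacent gene Trim17, read 1.89, 1.75, 1.72 and 1.65 against 1.65, 1.62, 1.65 and 1.65, a difference of -0.11. The groups overlapped in the first and touched without overlap in the second, and both lay on the plateau of low values.

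H2ac19 (Hist2h2aa2), which lies in Hist2 beside H3c15, had lower values on all knock-down arrays by both of its own probe sets above the plateau, without passing the test. Probe set 1418366_at read 5.46, 5.47, 6.07 and 5.93 in Luc and 5.11, 5.12, 5.39 and 5.39 in the knock-down, a difference of -0.48 ± 0.16 (SE, n = 4 per group; limma adjusted p = 0.101). Probe set 1418367_x_at read 7.25, 7.38, 7.25 and 7.74 against 6.92, 7.02, 7.16 and 7.17, a difference of -0.34 ± 0.12 (SE, n = 4 per group; limma adjusted p = 0.118). For 1418366_at the control arrays of replicates 3 and 4 were again the higher, and with the replicate sets as a block it passed (limma adjusted p = 0.00226). It also passed with array weights (limma adjusted p = 0.0231), the replicate number as a block (0.0189) and a minimum mean of 4 (0.0363). Within replicates 1 and 2 (limma adjusted p = 0.0143) and 3 and 4 (0.0240) it passed too, and 14 alternative fits did not call it. Probe set 1418367_x_at passed with a minimum mean of 4 (limma adjusted p = 0.0483) and within replicates 1 and 2 (0.0484), and not in 17 other fits.

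Hist1 H2A genes are read together by 1438009_at, which is annotated to 10 of them and was the brightest H2A member. It read 15.71, 15.85, 15.52 and 15.58 in Luc and 15.59, 15.58, 15.57 and 15.39 in the knock-down. The groups overlapped, and the difference was -0.13 ± 0.08 (SE, n = 4 per group; limma adjusted p = 0.430).

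H2B members stood on both sides of 0. Probe set 1418072_at, annotated to H2bc4, H2bc6 and H2bc8 of Hist1 and designed from a sequence of H2bc4, read 10.36, 10.24, 10.52 and 10.34 in Luc replicates 1 to 4 and 10.90, 10.96, 10.61 and 10.61 in the knock-down. Replicates 1 and 2 of the knock-down were clearly above all controls, and replicates 3 and 4 were just above the highest. The difference was 0.40 ± 0.10 (SE, n = 4 per group; limma adjusted p = 0.0342), or 1.32-fold higher. It was 0.62 within replicates 1 and 2 and 0.18 within replicates 3 and 4, where it did not pass (limma adjusted p = 0.293). The call was also lost in the methods' analysis of variance (adjusted p = 0.0774), with array weights (0.0874), and without Luc replicate 1 (limma adjusted p = 0.0831), Luc replicate 2 (0.0909), Luc replicate 4 (0.0876), knock-down replicate 1 (0.0887) or knock-down replicate 2 (0.0754). Other probe sets for the same 3 genes, 1440330_at and 1445565_at, were dim and differed by 0.01 and 0.02.

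The Hist3 H2B genes lie on chromosome 11 in the order H2bu2, H2bu1-ps, Trim17 and H2aw, so that Trim17 stands between them and H2aw. Their probe set 1449482_at read 5.84, 5.84, 5.92 and 6.08 in Luc and 6.49, 6.10, 6.86 and 7.0 in the knock-down. No knock-down array overlapped the controls, although knock-down replicate 2 was only just above Luc replicate 4. The difference was 0.69 ± 0.19 (SE, n = 4 per group), or 1.61-fold, and did not pass (limma adjusted p = 0.0517), with 0.45 and 0.93 in the replicate sets. It passed with the replicate sets as a block (limma adjusted p = 0.0116), with the replicate number as a block (0.0386), within replicates 3 and 4 (0.0226) and without knock-down replicate 2 (0.00784). It also passed with array weights (limma adjusted p = 0.0304) and when centred on bright probe sets (0.0420). A variance trend with a robust prior (limma adjusted p = 0.0314) and a minimum mean of 4 (0.0162) called it too. The other 11 alternative fits did not. The 0.69 stood beside the -0.64 of H2aw, and the difference between these Hist3 genes was not tested.

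The brightest H2B member, 1452540_a_at, is annotated to 11 Hist1 genes and read 11.35, 11.54, 11.30 and 11.26 in Luc and 11.23, 11.30, 11.30 and 11.13 in the knock-down. The groups overlapped and the difference was -0.12 ± 0.07 (SE, n = 4 per group; limma adjusted p = 0.375). H2bc21 (Hist2h2be), which lies between H2ac20 and H3c15 in Hist2, read 3.62, 3.93, 4.43 and 4.73 by 1447854_s_at in Luc and 3.74, 3.45, 3.63 and 3.63 in the knock-down. Luc replicates 3 and 4 stood above the rest. The difference of -0.57 ± 0.23 (SE, n = 4 per group) did not pass (limma adjusted p = 0.183). It did within replicates 3 and 4 (limma adjusted p = 0.0387), without Luc replicate 1 (0.0495) and with array weights (0.0250), and 15 alternative fits did not call it. The remaining H2B members were 1427762_x_at (H2bc22) at -0.16 and 3 others that were dim, 1455095_at (H2bc21), 1425868_at (H2bc18) and 1425398_at (6 Hist1 genes), between -0.05 and 0.06.

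Linker histone H1 was read mainly through H1f2 (Hist1h1c), and none of the 5 H1 members passed. Probe set 1436994_a_at read 7.90, 8.07, 8.38 and 8.09 in Luc and 8.83, 8.86, 8.38 and 8.41 in the knock-down. Replicates 1 and 2 of the knock-down were above all controls, and replicate 3 was level with Luc replicate 3. The difference was 0.51 ± 0.15 (SE, n = 4 per group; limma adjusted p = 0.0627), and it passed without Luc replicate 3 (0.0420) or knock-down replicate 3 (0.0487). With all arrays the difference passed when centred on bright probe sets (limma adjusted p = 0.0433) and with a variance trend and robust prior (0.0393). A minimum mean of 4 called it too (limma adjusted p = 0.0216), and 13 alternative fits did not. It was 0.86 in replicates 1 and 2 (limma adjusted p = 0.00656) and 0.16 in replicates 3 and 4 (0.484), and the sets were not shown to differ (limma interaction adjusted p = 0.123). A second H1f2 probe set, 1416101_a_at, differed by 0.21 ± 0.13 (SE, n = 4 per group; limma adjusted p = 0.437), and probe sets for H1f4, for H1f6, a testis gene, and the third for H1f2 were dim.

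By cluster, the 16 members with Hist1 symbols alone had a median of 0.003 and 1 rose. The 6 with Hist2 symbols alone had a median of -0.23 and none was called, with 5 of the 6 below 0. They do not stand for separate genes. Probe sets 1418366_at, 1418367_x_at and 1438815_at all name H2ac19, and 1447854_s_at and 1455095_at name H2bc21. Of the 6, 3 were dim in both groups. Of the 4 Hist3 members 1 fell, and of the 4 shared between Hist1 and Hist2, all H3 probe sets, 2 fell. The 5 H4 members, shared by Hist1, Hist2 and Hist4, held 1 that rose.

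Within replicates 1 and 2 alone 9 members were called, or 25.7% against 13.7% of all probe sets, and within replicates 3 and 4 alone 8, or 22.9% against 10.2%. A fit that blocks on the replicate sets called 9 members, or 25.7% against 18.2%. In these fits the members' share was above that of the array. Since the split into sets came from these same data, these fits are not separate support for a call or for that share. In the main fit, with all arrays and no block, it was near it. Other unblocked fits of all arrays differed. The share was above the array's with array weights (25.7% against 16.6%), when centred on bright probe sets (22.9% against 15%) and with a variance trend and robust prior (20% against 14.6%). So it was with a minimum mean of 4 (61.1% against 40.3%). It was near it in the methods' analysis of variance (11.4% against 11.2%) and below it among single-symbol probe sets (6.25% against 18.7%). Of the 5 calls of the main fit, all were kept within replicates 1 and 2 and all but 1418072_at within replicates 3 and 4. For no member did the replicate sets differ by the interaction test, the lowest adjusted p being 0.123.

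Genes that act on histones were described next, each by its brightest probe set with a single symbol. Of 22 measured factors of histone mRNA synthesis, processing and decay, 3 rose and 6 fell, and 13 did not pass, with a median difference of -0.04. Hinfp, which activates H4 genes, fell by 0.74 on the log2 scale (-0.74 ± 0.11 (SE, n = 4 per group); limma adjusted p = 0.00434). The U7 snRNP proteins Lsm10 and Lsm11 fell (-0.50 and -0.31), as did the cleavage factors Cpsf3 (-0.41) and Cpsf2 (-0.19). Upf1, which takes part in histone mRNA decay, rose (0.21), and so did the exonuclease Eri1 (0.18) and Cstf2 (0.17). Of the single-symbol probe sets of these genes, 1 of 2 was called for Hinfp and for Lsm11 and 1 of 3 for Cpsf2 and for Cstf2. For Cpsf3 it was 2 of 3 and for Eri1 2 of 2, and Lsm10 and Upf1 each had 1. Slbp, the stem-loop binding protein, differed by -0.04 and Npat by -0.08, and neither passed.

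Of 22 measured histone chaperones 3 rose and 3 fell, with a median of -0.02. Those that rose were Dnajc9 (0.41), a chaperone of H3 and H4, Ubn1 (0.31) and Rbbp7 (0.31). Those that fell were Daxx (-0.35), which deposits H3.3, Hira (-0.26) and the FACT subunit Supt16 (-0.16). Of the single-symbol probe sets of these chaperones, 1 of 4 was called for Hira and 1 of 2 for Ubn1. For Rbbp7 and Supt16 it was 2 of 2, and Dnajc9 and Daxx each had 1. Of 11 measured histone variants, Macroh2a2 rose (0.57), H2aj (-0.51) and H2az1 (-0.20) fell and 8 did not pass, with a median of 0.04. For H2aj 1 of 3 probe sets was called and for H2az1 1 of 2, and Macroh2a2 had 1. Among the 8, H3f3b had only 1 single-symbol probe set, 1430357_at, with array values from 5.04 to 6.63, so its values rest on that probe set. By it H3f3b was 1.28 within replicates 1 and 2 (limma adjusted p = 0.0151) and -0.38 within replicates 3 and 4. Its replicate sets differed (limma interaction adjusted p = 0.0449). The 4 measured testis or oocyte histone genes were dim, and none was called.

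In the main fit the S-phase genes that passed the test were all lower. Of 25 measured, 9 fell, none rose and 16 did not pass, with a median of -0.12. Among the 16, Ccne1 was -0.46 within replicates 1 and 2 and -0.06 within replicates 3 and 4 (limma interaction adjusted p = 0.0497). Within replicates 1 and 2 alone 8 S-phase genes fell and 1 rose. The rise was that of Tyms, at 0.38 (limma adjusted p = 0.0266), by a probe set with array values from 5.46 to 6.11. Within replicates 3 and 4 Tyms was -0.16. The replication licensing and start factors Orc1 (-0.60), Mcm10 (-0.59), Cdc6 (-0.39) and Gins1 (-0.31) fell, and so did the polymerase subunit Pola1 (-0.59). Of their single-symbol probe sets, 1 of 2 was called for each of Orc1, Gins1 and Pola1 and 1 of 3 for Mcm10, and Cdc6 had 1. Over all probe sets 14.9% were called, 6.47% higher and 8.4% lower, but these genes were each read by their brightest probe set and nearly all had a mean of at least 4. When the fit was restricted to such probe sets, 40.3% of all were called, beside 10 of 25 S-phase genes, 11 of 21 mRNA factors, 7 of 22 chaperones and 4 of 10 variants, so nothing particular to the lists is read from their counts. Histone, S-phase and ESC marker differences were measured on the same arrays, and the part that cell cycle position or loss of ESC identity has in the histone values was not tested.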

How the data were processed

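Biotin-labelled cRNA from total RNA (RNeasy) was hybridized to Affymetrix mouse expression arrays. The authors deposited log2 values, summarized per probe set by GCRMA in Partek Genomics Suite 6.4. That method equalizes the distribution of values between arrays, which hides a shift shared by most transcripts, and draws dim probe sets to a low plateau. After 64 control probe sets had been left out, the groups were compared over 45037 probe sets with limma 3.58.1 (lmFit and eBayes, R 4.3.3), two-sided and without a block. P-values were adjusted over all of them by the Benjamini-Hochberg method, with a threshold of 0.05. The study's methods name a parametric analysis of variance, which was run as an alternative. No probe set was filtered out, and the number of arrays limits the precision. P-values measure the spread between these samples, which may be technical.

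Members were found through Entrez identifiers in the platform annotation and RefSeq synonyms (GRCm38.p6), since 0 probe sets carry a symbol that starts with Hist1h to Hist4h. Promoter sequences came from RefSeq. Members, gene lists and the choice of tests were made with earlier results of these data known. Array values are given for Rad21, the brightest probe set of each histone type, every called member and the Hist3 and Hist4 probe sets. In other lists, up to 5 called genes in each direction are named. List genes were represented by their brightest single-symbol probe set. Alternatives were the replicate number or the replicate sets as a block, fits within each replicate set, a variance trend with a robust prior, array weights, centring on probe sets with a mean of at least 8, quantile normalization, a minimum mean of 4, other choices of probe sets, each array left out in turn, and thresholds of 0.01 or of 1.5-fold.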

Additional observations from a re-analysis of the deposited data

Results flagged for a closer look

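In each group of 4 arrays the highest and the lowest value were set against the gap to the nearest array. Of 88 groups examined over the named probe sets, 6 held an array that stood apart by Dixon's test at the 95% level, and chance gives about 1 in 20. The array concerned was the highest or the lowest of its group in a narrow range. Among H4 probe sets it was knock-down replicate 4 at 3.09 for 1422947_at and knock-down replicate 1 at 2.70 for 1431658_at. Among H2A probe sets it was knock-down replicate 2 at 1.62 for 1435865_at and knock-down replicate 4 at 15.39 for 1438009_at. For the H3 probe set 1460314_s_at it was Luc replicate 2 at 9.83, and without that array the difference was still called. For the chaperone gene Supt16 it was knock-down replicate 3 at 12.89.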

How the results depend on the processing

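The number of histone probe sets called, 5 of 35, was 3 at an adjusted p under 0.01, 3 at 1.5-fold, 9 with array weights, 8 when centred on bright probe sets, 9 with the replicate sets as a block (1418366_at, 1442051_at, 1449482_at and 1453573_at gained), 9 within replicates 1 and 2, 8 within replicates 3 and 4, 3 of 26 without probe sets named _x_at, _s_at or _a_at and 1 of 16 among single-symbol probe sets. It was 11 of 18 (61.1%) with a minimum mean of 4, where 40.3% of all probe sets were called. Array weights called 16.6% of all probe sets, bright centring 15% and the block on replicate sets 18.2%. Within replicates 1 and 2 the share of all was 13.7%, and within replicates 3 and 4 it was 10.2%. Without _x_at, _s_at and _a_at probe sets, 11.5% of members and 12.5% of all were called. Among single-symbol probe sets these shares were 6.25% and 18.7%. Shares of all probe sets are not given for the 0.01 and 1.5-fold thresholds, so their counts cannot be set against the background. Leaving out 1 array gave 4 to 6 called members of 35, where 12% to 13.8% of all probe sets were called. With the replicate number as a block 6 of 35 members were called, beside 13.8% of all probe sets. In that fit 1418072_at was lost and 1418366_at and 1449482_at were gained. Same-numbered arrays deviated together with r from 0.02 to 0.13, so the numbers were not taken as pairs, and 1 of 4 arrays in each group correlated best with its own number. The methods' analysis of variance called 4 members and 5049 of all probe sets, against 6697. The members' median was -0.14 with a minimum mean of 4, -0.087 after quantile normalization and -0.020 within replicates 3 and 4, and ran from -0.072 to -0.024 with 1 array left out. Of the 5 calls, those of 1422155_at, 1460314_s_at, 1424854_at and 1435866_s_at held wherever these probe sets were fitted at an adjusted p under 0.05.

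Near-zero differences changed sign. For 1431658_at it was 0.13 within replicates 1 and 2 and ran from -0.20 to 0.048 with 1 array left out, above 0 without Luc replicate 4. For 1455712_at it was 0.028 with array weights, 0.0080 when centred on bright probe sets and 0.070 within replicates 3 and 4, and ran from -0.056 to 0.031 with 1 array left out, above 0 without Luc replicate 2 or knock-down replicate 1. None of these passed, and the causes were not tested.

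At an adjusted p under 0.01 the called genes were 5 of the S-phase list, 3 chaperones, 5 mRNA factors and 1 variant, and at 1.5-fold 3, 0, 1 and 0. The methods' analysis of variance called 5 mRNA factors and 1 variant. Within replicates 1 and 2 there were 5 mRNA factors, and within replicates 3 and 4 there were 5 S-phase genes and 1 mRNA factor. With 1 array left out the counts were 7 to 10 S-phase genes, 4 to 6 chaperones, 6 to 10 mRNA factors and 1 to 3 variants, with 1 variant without Luc replicate 4, knock-down replicate 1 or knock-down replicate 2. Without probe sets named _x_at, _s_at or _a_at there was 1 variant. A difference in a probe set near the low plateau could not be measured at this signal.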
